A study of Mus musculus with 12 samples.

Results

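The 38 genes described here encode the clotting, anticoagulant, fibrinolytic and complement proteins that hepatocytes secrete into plasma. They were taken by gene symbol from a table of 46095 genes, and all 38 were found. They were read in 12 RNA sequencing libraries from liver of mice in which the carcinogen diethylnitrosamine (DEN) had induced hepatocellular carcinoma. Of these libraries, 7 carried the genotype Pck1-null (KO) and 5 were wild type (WT). Pck1 encodes the cytosolic phosphoenolpyruvate carboxykinase of gluconeogenesis, and the study compared the carcinomas of the genotypes. All groups share the carcinogen, and no library of liver without carcinogen was analysed here. The labels give no age, sex, strain or carcinogen dose, do not describe the null allele, and do not say whether each library is a separate mouse, so p-values measure only the spread between these samples. All 38 genes passed the filter on low counts that left 14666 genes for testing, and 37 of them had over 10 counts in every library.

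Hepatocytes supply most clotting and complement proteins of the blood. In clotting, a chain of serine proteases turns prothrombin into thrombin, and thrombin turns fibrinogen into fibrin; antithrombin, heparin cofactor II and the protein C system restrain it, and plasmin dissolves the clot. In complement, the classical and lectin routes and the alternative route meet at C3, and the terminal components then assemble a pore in the target membrane. Several of these genes, among them those of fibrinogen and C3, are known to respond to interleukin-6 in the acute phase.

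The libraries held 17462102 to 23663506 counts in 7 cases (KO replicates 1, 2, 3 and 7 and WT replicates 1, 3 and 4, the shallower libraries) and 43071365 to 46747125 in the other 5 (the deeper libraries). Levels are given in CPM, counts scaled to the library size after adjustment by the trimmed mean of M-values (TMM). Pck1 lay at 110.8 to 1167 CPM in KO and 1063 to 5822 CPM in WT, so KO replicate 3 overlapped WT replicate 4, and the log2 fold change was −3.28 ± 0.67 (SE; adjusted p = 0.170 in edgeR's test). Hepatocyte markers were abundant throughout, with Alb between 31612 and 140779 CPM, and the 14 markers summed to 94787 to 222875 CPM in KO and 91865 to 281292 CPM in WT. Sums of the 11 neutrophil markers were 29.4 to 1658 CPM in KO, highest in replicates 3, 6 and 4, and 23.8 to 51.8 CPM in WT. The 9 endothelial markers summed to 171.3 to 669.6 CPM in KO and 402.5 to 601.2 CPM in WT, and the 9 macrophage markers to 336.6 to 2801 and 640.2 to 1394 CPM; in each list all KO libraries but replicate 6 had sums under those of WT. The 6 cholangiocyte markers summed to 25.7 to 4313 CPM in KO, highest in replicate 5, and 153.8 to 974.6 CPM in WT. Across the lists of platelets, erythroid cells and stellate cells KO and WT also overlapped, and no marker of any list was at 0 in all libraries, although platelet Gp1ba and Gp1bb had at most 10 counts in each. The part of these cells in the results below was not tested. In bulk tissue, fewer cells of a type and less RNA per cell cannot be told apart. Xist, which silences an X chromosome, lay at 91.0 to 167.4 CPM in KO replicates 1, 2, 3, 5 and 6 and WT replicate 4, and at most 0.703 CPM in the others.

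Most of the 38 genes had lower fitted levels in KO, and none passed the test. Negative log2 fold changes were found for 31 of 38 genes (81.6%), against 46.3% of all 14666 genes tested. The share was similar among the 14 hepatocyte markers (78.6%) and 12 liver transcription factors (83.3%), and 55.6% among 18 acute phase genes. A share of this size is therefore not particular to the 38 genes. The median log2 fold change was −0.40 for the 38 genes and 0.03 for all genes tested. After adjustment over all genes, edgeR's quasi-likelihood test called 0 of the 38, as it called 0% of all genes in each direction, and the smallest adjusted p was 0.197, for F9. At an unadjusted p under 0.05 there were 10 of 38, or 26.3%, all lower in KO: F7, F9, F10, Serpinc1, Cpb2, Masp2, Hc, C8a, C8b and C8g. Of all genes tested, 7.44% were lower and 7.25% higher at that level. KO and WT libraries did not overlap for 3 of the 38 genes, F9, Cpb2 and C8g, all lower in KO, against 0.58% of all genes lower and 0.634% higher without overlap. DESeq2 called 3 of 38 at an adjusted p under 0.05, namely F9, Serpinc1 and Cpb2 (1.38% of the genes it adjusted were called lower). Limma-voom with sample weights called 9 of 38, all lower, where 8.18% of all genes were called lower. At an unadjusted p under 0.05 limma-voom with weights had 16 of 38 lower, where 16.8% of all genes were.

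By role, the medians were −0.22 over the 13 clotting genes, −0.25 over the 8 anticoagulant and fibrinolytic genes and −0.53 over the 17 complement genes; the difference between these groups was not tested. All 6 terminal complement genes were negative, with a median of −0.95, and 4 of the 6 had an unadjusted p under 0.05. Of all genes tested, 46.3% were negative and 7.44% were lower at that level. The C3 and Cfb pair and the regulators Cfi and C4bp each held 1 negative and 1 positive value. In the shallower libraries 33 of 38 genes were negative, with a median of −0.39, and in the deeper libraries 25 of 38, with a median of −0.38. The deeper libraries alone left 4 of 38 lower at an unadjusted p under 0.05 (7.32% of all genes). Leaving out KO replicate 2 or WT replicate 4 gave 13 of 38 each (7.02% and 7.16% of all genes). Of the 38 genes 22 were negative and 2 positive in both depth classes. Xist was high in WT replicate 4 alone among WT libraries, and low in KO replicates 4 and 7 alone among KO libraries. Xist class and genotype therefore largely coincide, and a fit with both separates them poorly. With the Xist class as a covariate 29 of 38 were negative, with a median of −0.34, against 0.013 over all genes tested. At an unadjusted p under 0.05 edgeR's test then had 8 of 38, all lower, where 907 of 14666 genes were lower.

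**Figure D1:**
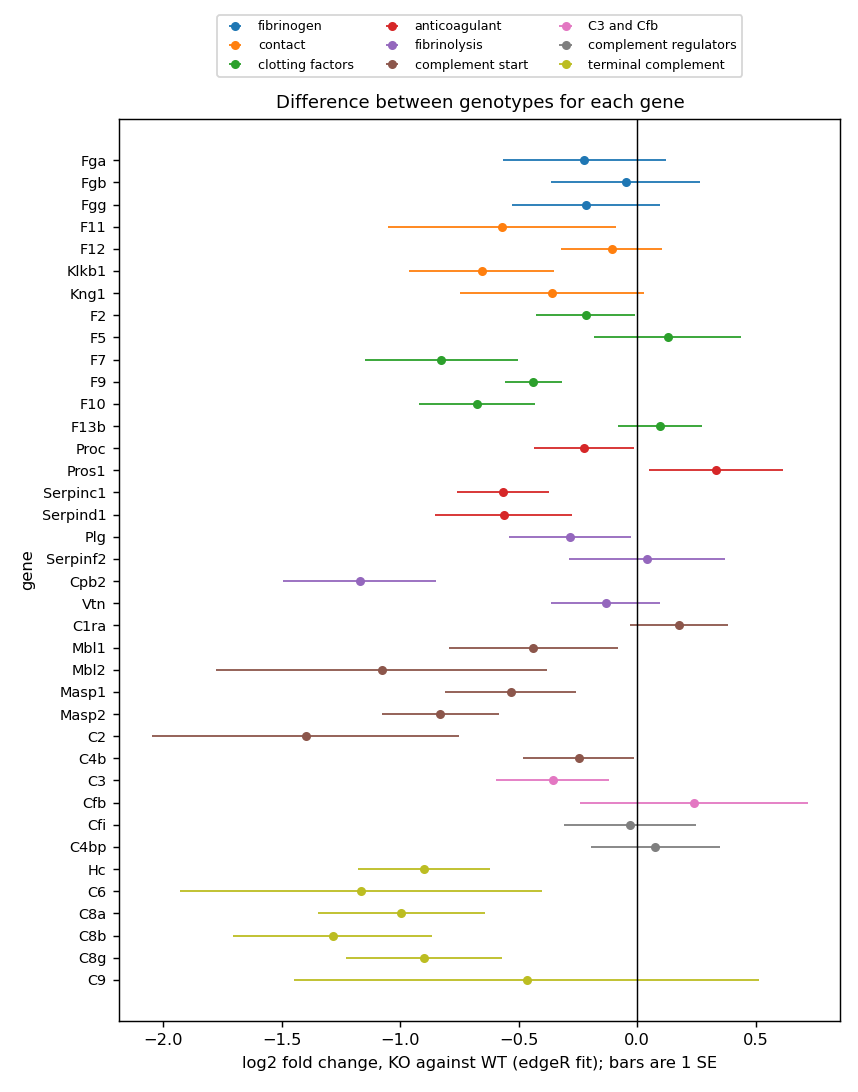
Log2 fold change of each of the 38 genes, KO against WT, from the edgeR fit over 7 KO and 5 WT libraries (horizontal axis), with bars of 1 standard error and colours by role. The points of 31 genes lie left of 0, and all 6 terminal complement genes do.

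WT replicate 3 stood apart for these genes. It was the highest of the 12 libraries for 22 of the 38 genes, and lay above the mean level for 35. Its median deviation from each gene's mean was 0.77 on the log2 CPM scale, while WT replicates 1, 2, 4 and 5 ranged from −0.20 to 0.33 and KO libraries from −0.44 to 0.16. The same library had the highest median deviation of the hepatocyte markers, 0.73, and the lowest TMM factor, 0.816. Without it the median log2 fold change of the 38 genes was −0.22, with 24 negative and 7 at an unadjusted p under 0.05 (6.08% of all genes were then lower at that level). KO replicates 5 and 4 were the lowest library for 12 and 9 genes, KO replicate 1 for 7 and WT replicate 4 for 4. KO libraries supplied the lowest value for 32 of the 38 genes and the highest for 7, with 7 KO and 5 WT libraries in the comparison. How often each library was lowest, highest or above the mean over all genes tested was not counted. These counts are therefore not shown to be particular to the 38 genes. The 38 genes together took 3.64% to 5.87% of the counts in KO and 3.91% to 6.63% in WT.

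**Figure D2:**
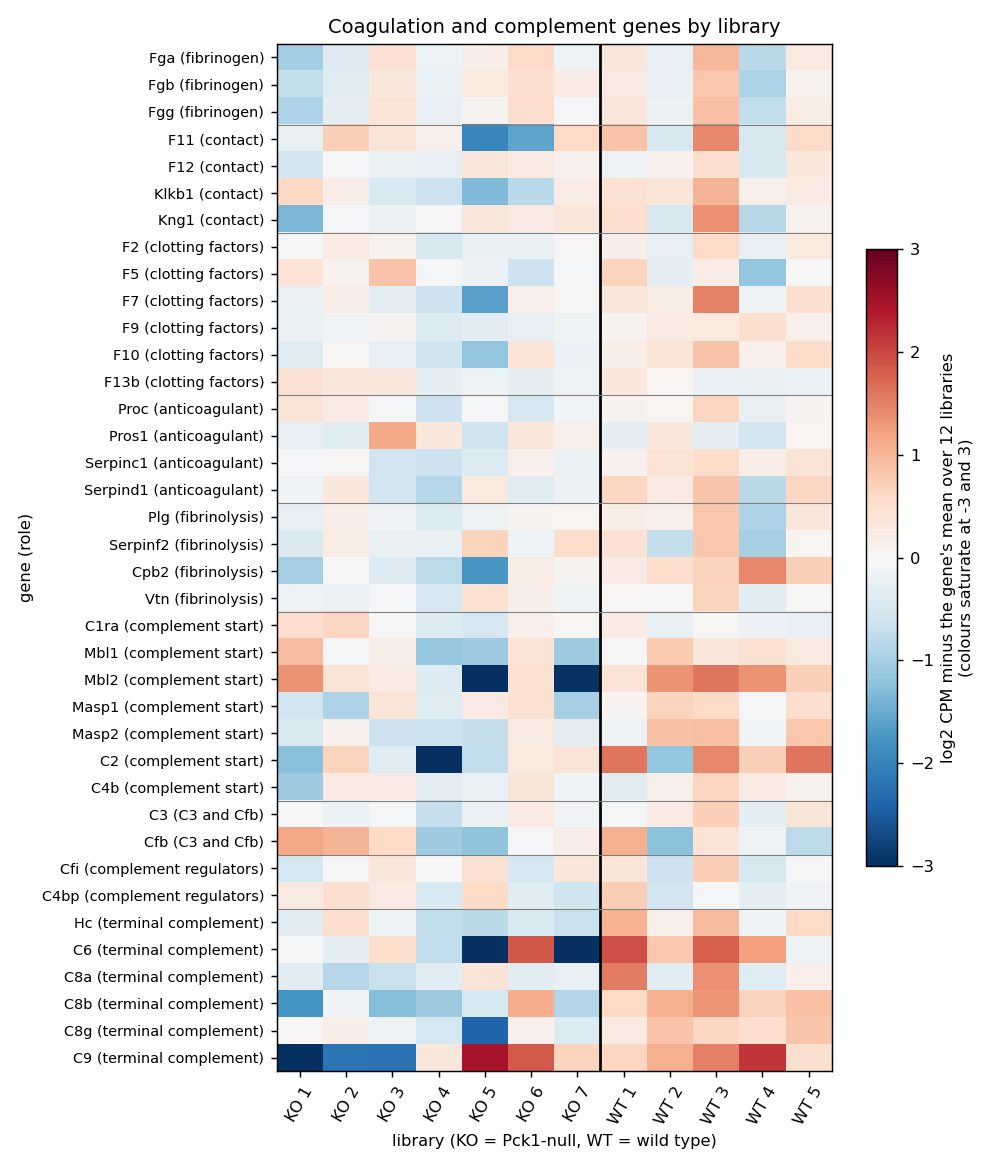
Log2 CPM of each gene minus its mean over the 12 libraries (colour, saturating at −3 and 3), with genes ordered by role in rows and libraries in columns, KO left of the line. WT replicate 3 is above the mean for 35 of 38 genes, and the deepest blue cells are Mbl2 and C6 in KO replicates 5 and 7, C9 in KO replicates 1, 2 and 3, C2 in KO replicate 4 and C8g in KO replicate 5.

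Per kilobase of exon (union of exons in GENCODE M21, mm10), the most abundant of the 38 by the median over libraries was C3, at 2272 CPM per kilobase. Fga, Fgg and Fgb followed at 1835, 1758 and 1650 CPM per kilobase, then Vtn at 1166 and Kng1 at 954.7. The lowest were C2 at 0.393, Cfb at 5.59, Masp1 at 8.71, C6 at 9.67 and Masp2 at 14.9 CPM per kilobase. For Cfb and C2, 79.5% and 42.8% of exon bases also lie in exons of Gm20547 on the same strand. How reads shared by overlapping genes were counted is not stated, so the low levels of Cfb and C2 cannot be set against the other genes with confidence.

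Fibrinogen, the precursor of fibrin, is built from the chains encoded by Fga (chr3:83026076-83033627), Fgb (chr3:83040141-83049863) and Fgg (chr3:83007724-83015049), neighbours on chromosome 3. Their levels varied between libraries as a unit, so the bases before their starts are shown, from RefSeq promoter windows on GRCm38.p6 and read 5′ to 3′. Capitals mark matches on either strand to the letters GTTAAT (core of an HNF1 site), TTGCNNAA (a C/EBP type), TTCNNNGAA (the STAT3 palindrome) and CTGGGAA (an interleukin-6 element, which can overlap the STAT3 letters). The Fga sequence stops before the RefSeq start, where GENCODE starts the gene, so the HNF1 core 43 to 38 bases before the RefSeq start lies outside it.
Fga (chr3:83025903-83026075, plus strand): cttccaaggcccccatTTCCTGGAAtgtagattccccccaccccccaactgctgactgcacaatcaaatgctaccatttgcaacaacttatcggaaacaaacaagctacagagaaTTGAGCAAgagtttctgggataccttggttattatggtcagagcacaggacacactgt
Fgb (chr3:83049864-83050113, minus strand): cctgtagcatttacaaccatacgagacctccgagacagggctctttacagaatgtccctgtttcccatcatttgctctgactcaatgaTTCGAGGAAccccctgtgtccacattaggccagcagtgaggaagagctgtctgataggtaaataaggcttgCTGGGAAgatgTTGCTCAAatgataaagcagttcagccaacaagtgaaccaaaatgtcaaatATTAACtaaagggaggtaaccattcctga
Fgg (chr3:83007474-83007723, plus strand): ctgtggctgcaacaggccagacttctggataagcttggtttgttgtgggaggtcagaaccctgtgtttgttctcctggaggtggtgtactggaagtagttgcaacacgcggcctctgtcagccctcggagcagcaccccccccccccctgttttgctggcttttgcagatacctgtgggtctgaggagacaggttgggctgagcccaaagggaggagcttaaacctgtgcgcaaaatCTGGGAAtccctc
The Fgb window held all 4 of the motifs marked here, with the HNF1 core 29 to 24 bases before the start. In the Fga window the C/EBP type lay 135 to 128 bases before the RefSeq start. Fgg had only the interleukin-6 letters, 13 to 7 bases before the start. Windows were found for 30 of the 38 genes (not for Kng1, Proc, Plg, Masp1, C2, C4b, Cfb and Cfi). Over the 250 bases before the start, GTTAAT was found in 9 of the 30 genes (30%) and in 7.49% of 27025 genes with a window. TTGCNNAA was in 7 of 30 (23.3%) and 10.8% of all, TTCNNNGAA in 6 of 30 (20%) and 8.13%, and CTGGGAA in 5 of 30 (16.7%) and 10.4%. A match is a run of letters and does not show binding.

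Fgg had 1934 to 5190 CPM in KO, with a median of 3495. WT replicates 1 to 5 held 4626, 3247, 6751, 2177 and 4259 CPM of Fgg. The groups overlapped across nearly their whole range, with KO replicate 1 and WT replicate 4 lowest and WT replicate 3 highest. Fga ran from 2680 to 8009 CPM in KO (median 4881), and was at 6792, 4536, 10766, 3088 and 6491 CPM in WT replicates 1 to 5. The log2 fold changes were −0.22 ± 0.34 (SE) for Fga, −0.05 ± 0.31 for Fgb and −0.22 ± 0.31 for Fgg, with adjusted p from 0.768 to 0.955 in edgeR's test. Each of the 3 was negative in the shallower libraries (−0.54, −0.28 and −0.45) and positive in the deeper ones (0.20, 0.26 and 0.10). Within a library the chains kept close to a fixed ratio. The log2 ratio of Fga to Fgg had an SD of 0.0852 over the 12 libraries and a range of 0.22, whereas Fga and Fgg themselves had SDs of 0.576 and 0.516. Ratios to Fgb varied more, with SDs of 0.182 for Fga and 0.155 for Fgg, and both were lowest in KO replicate 7. The mean log2 ratio of Fga to Fgb was −0.12 ± 0.20 (SD) in KO and 0.071 ± 0.076 in WT. For Fgg to Fgb it was −0.68 ± 0.16 and −0.49 ± 0.051, and the difference between genotypes was not tested.

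**Figure D3:**
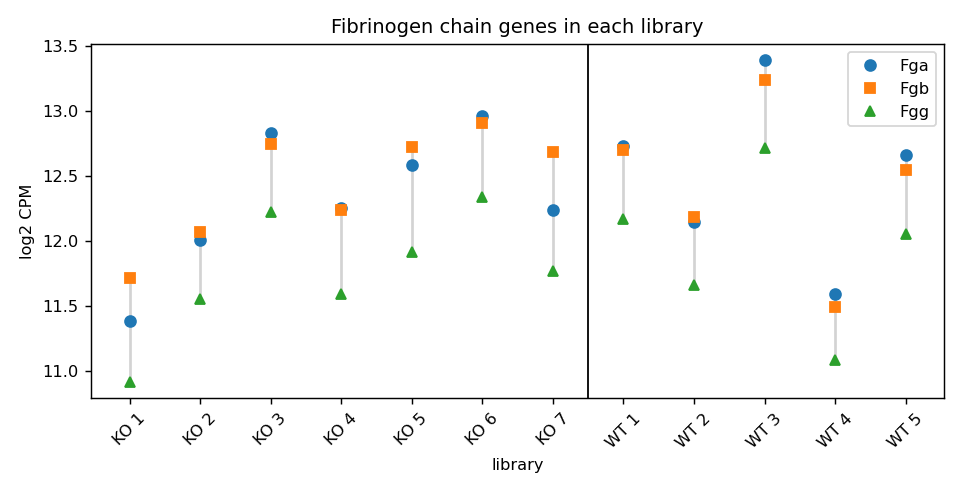
Log2 CPM of Fga, Fgb and Fgg (vertical axis) in each of the 12 libraries, KO left of the line; levels are not divided by gene length. The 3 genes are low together in KO replicate 1 and WT replicate 4 and high together in WT replicate 3.

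The contact system starts clotting at surfaces through factor XII and plasma prekallikrein, and releases bradykinin from kininogen. All 4 of its genes here were negative, from −0.11 to −0.66, against 46.3% of all genes tested. At an unadjusted p under 0.05 there were 0, where 7.44% of all genes were lower and 7.25% higher. Klkb1, the prekallikrein gene (chr8:45266689-45294859), had 49.5 to 187.9 CPM in KO with a median of 90.9. It was at 168.3, 159.9, 252.2, 138.4 and 148.1 CPM in WT replicates 1 to 5. Of the KO libraries 4 were under the WT range and KO replicate 1 lay above 4 of the 5. Its log2 fold change was −0.66 ± 0.30 (SE; adjusted p = 0.342), and 43.2% of its exon bases also lie in Gm45753 on the same strand. F11, its close relative on chromosome 8, ran from 15.6 to 98.9 CPM in KO (median 67.2) and was at 110.2, 43.2, 164.1, 43.5 and 89.9 CPM in WT. KO replicates 5 and 6 were far below the rest, at 15.6 and 20.3 CPM, and the difference was −0.57 ± 0.48. F12, factor XII, spread little (426.1 to 862.9 CPM over all libraries, log2 fold change −0.11 ± 0.21). Kng1, kininogen, differed by −0.36 ± 0.39, with −0.80 among shallower libraries and 0.35 among deeper ones, and reads of its paralog Kng2 (−0.0041 ± 0.36) may not be fully separable from it.

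Among the factors that act in sequence after the contact system, F9 was the gene with the smallest p of all 38. Factor IX is a vitamin K dependent protease that activates factor X, and its loss causes haemophilia B. Its 250 bases before the start carried a C/EBP type match 24 to 17 bases before the start and a STAT3 palindrome further out. An interleukin-6 element 82 to 76 bases before the start lies within the palindrome. The bases are shown because F9 is among the 3 genes without overlap.
F9 (chrX:59999214-59999463, plus strand): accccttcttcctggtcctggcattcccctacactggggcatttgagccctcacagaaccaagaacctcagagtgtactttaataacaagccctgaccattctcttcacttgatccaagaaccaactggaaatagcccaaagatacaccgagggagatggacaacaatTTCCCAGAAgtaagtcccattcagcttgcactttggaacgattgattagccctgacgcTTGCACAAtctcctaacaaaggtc
F9 (chrX:59999464-60030759) had 90.5 to 128.2 CPM in KO, with a median of 105.1. In WT replicates 1 to 5 it had 128.3, 141.9, 148.3, 168.3 and 134.2 CPM. All 7 KO libraries lay below all 5 WT libraries, although KO replicate 3, at 128.2, and WT replicate 1, at 128.3 CPM, all but touched. KO had a mean log2 CPM of 6.73 ± 0.17 (SD, n = 7) and WT of 7.17 ± 0.15 (SD, n = 5), and the fitted difference was −0.44 ± 0.12 (SE), 1.36-fold lower. Its adjusted p was 0.197 in edgeR's test and ran from 0.0167 (DESeq2) to 0.460 over 25 alternatives. Shallower libraries alone gave −0.38 and deeper ones −0.53. F9 also had the smallest SD of the 38 over the 12 libraries, 0.273 on the log2 scale, smaller than that of all but 20.9% of the genes tested.

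F10, factor X, which forms thrombin together with factor V, had 174.0 to 521.4 CPM in KO with a median of 333.3. WT replicates 1 to 5 held 442.5, 511.7, 708.4, 436.7 and 580.3 CPM. KO replicate 6 overlapped the WT range, and 6 of 7 KO libraries were under it. The log2 fold change was −0.68 ± 0.24 (SE; adjusted p = 0.252). F7, its neighbour on chromosome 8 and the partner of tissue factor, differed by −0.83 ± 0.32 (adjusted p = 0.285), 4 KO libraries being under the WT range, and by −0.47 without WT replicate 3. The log2 ratio of F7 to F10 had an SD of 0.291 over the libraries, against 0.728 for F7 alone.

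The other factors of this group had smaller differences. F2, prothrombin, ran from 1429 to 2350 CPM in KO (median 1903) and was at 2282, 1667, 2956, 1658 and 2427 CPM in WT, a log2 fold change of −0.22 ± 0.21 (SE). F13b, the carrier subunit of factor XIII, which cross-links fibrin, had 131.2 to 215.5 CPM in KO (median 144.1) and 199.8, 164.5, 136.2, 136.6 and 141.3 CPM in WT. Both had overlapping groups, and with F9 they were the least variable of the 38, with SDs of 0.2995 for F2 and 0.274 for F13b. F5, factor V, and F13b were the positive members, at 0.13 ± 0.31 and 0.10 ± 0.18, and both were negative in the deeper libraries (−0.13 and −0.18).

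Of the brakes on clotting, Serpinc1 stood lowest in KO by p. It encodes antithrombin, the inhibitor of thrombin and factor Xa (chr1:160978585-161005863). Its level was 1148 to 1984 CPM in KO, with a median of 1572, and 1965, 2376, 2636, 2064 and 2365 CPM in WT replicates 1 to 5. KO replicate 6, at 1984, lay just above WT replicate 1, and KO replicates 1, 2, 3, 4, 5 and 7 were under every WT library. The log2 fold change was −0.57 ± 0.19 (SE), 1.48-fold lower, with adjusted p = 0.246 in edgeR's test and 0.0420 in DESeq2. Among shallower libraries it was −0.50, among deeper ones −0.68. Zbtb37 overlaps 34.4% of its exon bases on the other strand, with a median of 2.699 CPM. Serpind1, heparin cofactor II, had 328.3 to 740.5 CPM in KO (median 526.4) and 919.1, 703.7, 1063, 342.2 and 925.7 CPM in WT. WT replicate 4 lay among the lowest KO libraries, and the difference was −0.56 ± 0.29 (adjusted p = 0.383). Proc, protein C, differed by −0.23 ± 0.21. Pros1, its cofactor protein S, had the largest positive value of the 38, 0.33 ± 0.28, or 0.10 without KO replicate 3, where it was highest at 314.1 CPM.

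Cpb2 was the fibrinolysis gene whose groups did not overlap. It encodes the carboxypeptidase TAFI, which trims fibrin and so slows its breakdown by plasmin. None of the motifs searched was found in its 250 bases before the start, shown as for F9.
Cpb2 (chr14:75242037-75242286, plus strand): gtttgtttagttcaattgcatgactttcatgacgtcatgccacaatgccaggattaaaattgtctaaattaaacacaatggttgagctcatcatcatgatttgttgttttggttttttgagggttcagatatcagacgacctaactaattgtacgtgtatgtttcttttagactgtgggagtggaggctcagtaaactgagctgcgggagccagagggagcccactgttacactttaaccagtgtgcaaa
Cpb2 (chr14:75242287-75283555) had 107.8 to 419.7 CPM in KO with a median of 277.0. WT replicates 1 to 5 held 430.3, 518.1, 586.5, 981.7 and 594.5 CPM. No KO library reached the WT range, and KO replicate 6 came nearest to it. KO had a mean log2 CPM of 7.98 ± 0.70 (SD, n = 7) and WT of 9.22 ± 0.44 (SD, n = 5), and the fitted difference was −1.17 ± 0.32 (SE), 2.25-fold lower. Its adjusted p was 0.201 in edgeR's test, 0.0322 in DESeq2 and 0.0192 in limma-voom with weights, and reached 0.412 over the alternatives. Shallower and deeper libraries alone gave −1.16 and −1.19, and the difference was −0.95 without WT replicate 4. Plg, plasminogen itself, ran from 1812 to 2780 CPM in KO (median 2223) and was at 2786, 2671, 4182, 1274 and 3050 CPM in WT. Its lowest and highest libraries were both WT, and it differed by −0.28 ± 0.26. Serpinf2, the plasmin inhibitor, differed by 0.04 ± 0.33, and Vtn, vitronectin, which stabilises the plasminogen activator inhibitor, by −0.13 ± 0.23.

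**Figure D4:**
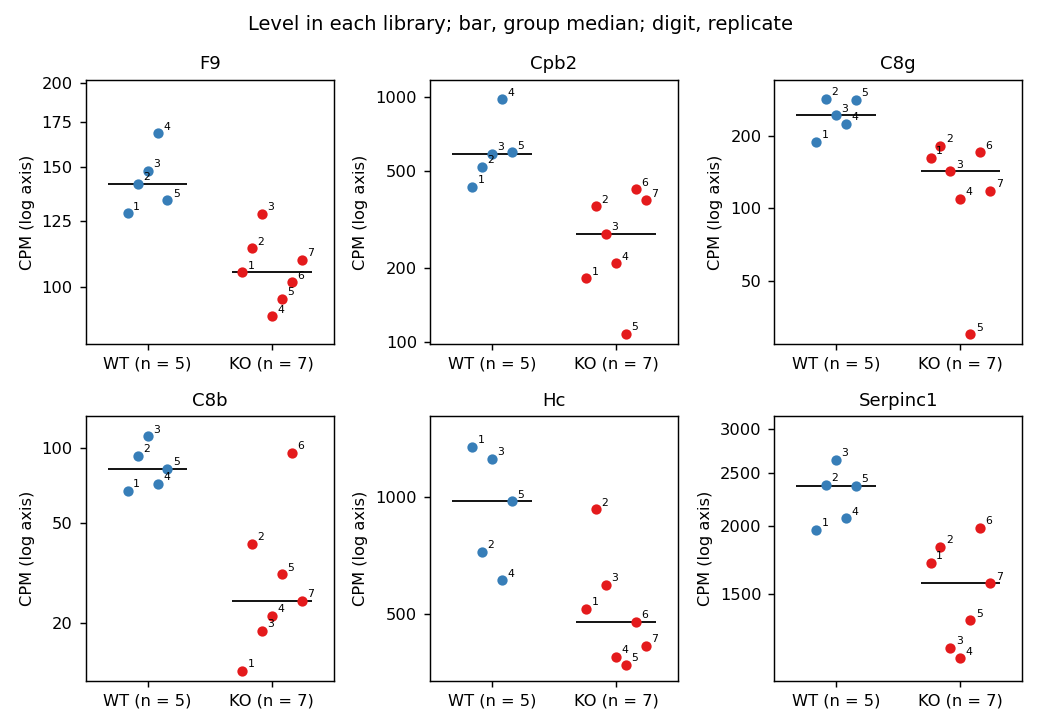
CPM (log axes, scales differ by panel) of 6 genes in each WT and KO library, with the replicate number beside each point and a bar at the group median. F9, Cpb2 and C8g show no overlap; in C8b and Serpinc1 KO replicate 6 is the KO library that reaches the WT range, and in Hc it is KO replicate 2.

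Complement is started by C1 on antibodies and by mannose-binding lectins on sugars, whose proteases cut C4 and C2. Of these 7 genes 6 were negative, against 46.3% of all genes tested. Masp2, the lectin protease that cuts C4 and C2, was the 1 (14.3%) with an unadjusted p under 0.05. Of all genes, 7.44% were lower at that level. Masp2 (chr4:148602554-148615499) had 32.8 to 65.1 CPM in KO with a median of 39.0. WT replicates 1 to 5 held 48.4, 98.4, 100.2, 50.3 and 93.9 CPM, so WT replicates 1 and 4 lay within the KO range and the other 3 above it. The log2 fold change was −0.83 ± 0.25 (SE; adjusted p = 0.211), with −0.60 among shallower and −1.13 among deeper libraries. Tardbp shares 54.9% of the Masp2 exon bases on the other strand, and had a median of 14.95 CPM and a log2 fold change of −0.39 ± 0.17; without a stated strand setting their reads cannot be told apart. Masp1, the partner protease, differed by −0.53 ± 0.28. C2 had 0.0715 to 1.94 CPM in KO (median 0.915) and 3.73, 0.502, 3.37, 2.004 and 3.75 CPM in WT, from 4 to 149 counts a library, a difference of −1.40 ± 0.65 (adjusted p = 0.341). C4b, the target of these proteases, and C1ra, a protease of C1, differed by −0.25 ± 0.23 and 0.18 ± 0.21. The copies C4a and C1rb held at most 20 and 223 counts.

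The mannose-binding lectins did not keep a fixed ratio. Mbl2 had 4.28 to 245.2 CPM in KO, with a median of 114.3, and 126.4, 245.6, 293.6, 244.5 and 157.8 CPM in WT replicates 1 to 5. KO replicates 5 and 7 stood apart at 4.28 and 12.4 CPM, while KO replicate 1 reached the upper WT values. Its SD over the libraries was 1.86 on the log2 scale and its difference −1.08 ± 0.70 (SE; adjusted p = 0.485). Mbl1 differed by −0.44 ± 0.36 and was lowest in KO replicates 4, 5 and 7, at 38.2, 39.8 and 39.9 CPM; Mbl2 was at 73.3 CPM in KO replicate 4. The log2 ratio of Mbl1 to Mbl2 therefore ran from −1.48 to 3.20, with an SD of 1.54 in KO and 0.371 in WT.

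C3, at which all routes meet, was the most abundant of the 38 per kilobase. It ran from 7445 to 14136 CPM in KO (median 11336) and was at 11797, 14139, 19590, 9889 and 15409 CPM in WT. The groups overlapped, and the log2 fold change was −0.36 ± 0.24 (SE; adjusted p = 0.4997). Cfb, factor B of the alternative route, had 6.43 to 33.2 CPM in KO (median 17.1) and 31.1, 6.30, 20.0, 13.5 and 8.68 CPM in WT, a difference of 0.24 ± 0.48. Cfi, the protease that inactivates C3b and C4b, had 680.2 to 1333 CPM in KO (median 965.9) and 1246, 630.7, 1622, 697.4 and 956.1 CPM in WT. C4bp, its cofactor against C4b, had 145.2 to 334.5 CPM in KO (median 260.6) and 367.7, 149.9, 212.3, 183.5 and 203.8 CPM in WT. The regulators differed by −0.03 ± 0.28 and 0.08 ± 0.27, with groups that overlapped nearly throughout.

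The terminal components build the membrane attack complex, and here lay the most negative group median. Hc, the gene of C5 (chr2:34983331-35061438), from which the complex starts, had 369.1 to 930.5 CPM in KO with a median of 476.6. WT replicates 1 to 5 held 1347, 723.3, 1255, 610.6 and 975.8 CPM. KO replicate 2 lay within the WT range and the other 6 KO libraries below it. The log2 fold change was −0.90 ± 0.28 (SE; adjusted p = 0.218), with −0.81 among shallower and −1.05 among deeper libraries. C8b, the beta chain of C8 (chr4:104766317-104804548), had 12.8 to 95.7 CPM in KO, with a median of 24.5, and 67.4, 93.4, 111.8, 72.0 and 82.5 CPM in WT. KO replicate 6 was at 95.7 and every other KO library at or below 41.4 CPM, under all WT libraries. Its log2 fold change was −1.28 ± 0.42 (adjusted p = 0.232). Without KO replicate 6 it was −1.78 with adjusted p = 0.0333, the only 1 of the 38 that edgeR then called, where 0.353% of all genes were called lower.

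The chains of C8 come from separate genes and did not keep a fixed ratio. C8g, the gamma chain (chr2:25498651-25501719), had 30.2 to 181.4 CPM in KO with a median of 142.4. WT replicates 1 to 5 held 188.2, 283.3, 242.5, 223.2 and 280.6 CPM, all above the KO libraries. Its difference was −0.90 ± 0.33 (SE), 1.86-fold lower, with adjusted p = 0.260, with −0.53 among shallower and −1.45 among deeper libraries. C8a, the alpha chain, differed by −0.995 ± 0.35 (adjusted p = 0.251), with −1.56 among shallower and 0.0084 among deeper libraries. WT replicates 1 and 3, both shallower, held 504.2 and 455.5 CPM of C8a, and all other libraries 97.4 to 227.1 CPM. Log2 ratios between the chains had SDs of 0.970 to 1.13 over the libraries, against 0.0852 to 0.182 among the fibrinogen chains.

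C9 and C6 varied most of all 38, with SDs of 2.60 and 1.86 on the log2 scale; that of C9 was larger than in 99.2% of the genes tested. C9 forms the wall of the pore, and its bases before the start are shown because of this spread. The capitals mark a C/EBP type match 132 to 125 bases before the RefSeq start, and the sequence stops where GENCODE starts the gene.
C9 (chr15:6445096-6445326, plus strand): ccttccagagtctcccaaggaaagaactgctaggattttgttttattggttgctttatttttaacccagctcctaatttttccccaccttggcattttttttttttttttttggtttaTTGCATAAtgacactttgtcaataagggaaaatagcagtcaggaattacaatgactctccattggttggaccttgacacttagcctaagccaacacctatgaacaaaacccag
C9 (chr15:6445327-6498751) had 0.628 to 425.0 CPM in KO, with a median of 96.7, and 119.6, 160.5, 217.5, 337.1 and 106.1 CPM in WT replicates 1 to 5. KO replicate 1 was at 0.628 CPM (15 counts) and KO replicates 2 and 3 at 16.6 and 16.5, whereas KO replicate 5 held more than any other library. KO had a mean log2 CPM of 5.42 ± 3.19 (SD, n = 7) and WT of 7.42 ± 0.68 (SD, n = 5), while the fitted log2 fold change was −0.47 ± 0.98 (SE; adjusted p = 0.849). Shallower libraries alone, which include KO replicates 1, 2 and 3, gave −2.53 and deeper ones 0.98. C6 (chr15:4727175-4814967), which joins C5b before C7 and C8, had 2.17 to 104.0 CPM in KO (median 23.4) and 108.7, 50.1, 98.9, 66.3 and 25.9 CPM in WT. KO replicates 5 and 7 were at 2.17 and 2.76 CPM, the pair of libraries in which Mbl2 was lowest as well, and KO replicate 6 was at 104.0. Its difference was −1.17 ± 0.76 (adjusted p = 0.488), with −1.95 among shallower and 0.10 among deeper libraries. The log2 ratio of C6 to C9 ran from −7.57 in KO replicate 5 to 5.33 in KO replicate 1, with an SD of 4.32 in KO and 0.868 in WT.

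**Figure D5:**
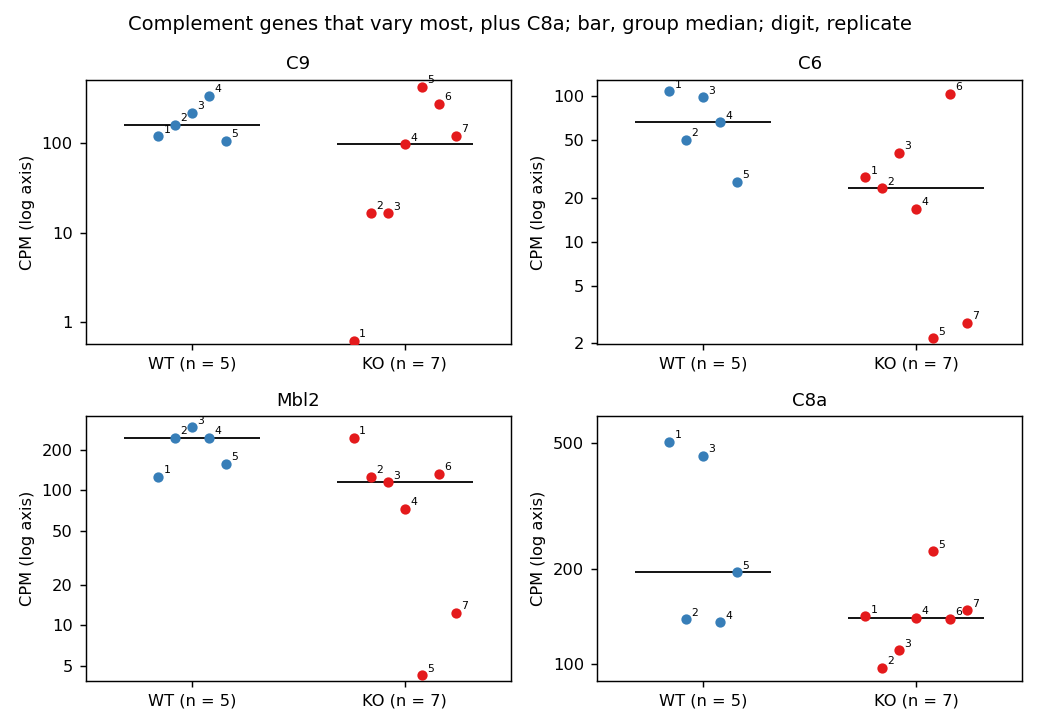
CPM (log axes, scales differ by panel) of C9, C6, Mbl2 and C8a in each WT and KO library, with replicate numbers and a bar at the group median. C9 is low in KO replicates 1, 2 and 3, C6 and Mbl2 in KO replicates 5 and 7, and C8a is high in WT replicates 1 and 3.

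Other genes of these pathways were read from lists of pathway members, beside the 7.44% of all genes tested that were lower and the 7.25% that were higher at an unadjusted p under 0.05. Of 6 genes of the vitamin K cycle and its partners, 6 were negative and 1, Ggcx, the carboxylase that the clotting factors need, had an unadjusted p under 0.05 (−0.91 ± 0.41 SE, at a mean of 0.42 log2 CPM in KO and 1.25 in WT). Serpina10, the protein Z dependent inhibitor, differed by −0.40 ± 0.21. Among 20 tested genes of clotting and fibrinolysis outside the 38, 4 (20%) were lower and 2 (10%) higher at that level, the latter near the share of all genes. F8, factor VIII, which in liver comes from sinusoidal endothelium, differed by −1.35 ± 0.46, with 5 of 7 KO libraries under the WT range. A2m, a broad protease inhibitor, differed by 3.61 ± 1.12 and Thbs1, thrombospondin, by 1.25 ± 0.42, each with 5 KO libraries above all WT libraries. Of 25 tested complement genes outside the 38, 3 (12%) were lower and 0 higher, against 7.44% and 7.25% of all genes. They were the collectins Colec10 (−2.03 ± 0.70) and Colec11 (−1.10 ± 0.41), which start the lectin route like Mbl2, each with 6 of 7 KO libraries under the WT range, and Cpn2 (−0.50 ± 0.22), a subunit of the carboxypeptidase that inactivates anaphylatoxins. None of these genes passed after adjustment in edgeR's test.

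In the list of 18 acute phase genes the median log2 fold change was −0.08, with 0 lower and 2 (11.1%) higher at an unadjusted p under 0.05, against 7.44% and 7.25% of all genes. Those were Il1r1, the interleukin-1 receptor, at 1.74 ± 0.45 (SE; adjusted p = 0.195), with all KO libraries above all WT libraries, and Socs3, a feedback inhibitor of interleukin-6 signalling, at 0.44 ± 0.19. Of 12 liver transcription factors 10 were negative, with 1 lower and 1 higher at that level (8.33% each), near the shares of all genes. Cebpa, the C/EBP factor of mature hepatocytes, differed by −0.72 ± 0.23 (adjusted p = 0.222), 6 of 7 KO libraries being under the WT range. The value was −1.02 among shallower and −0.33 among deeper libraries. Foxa1 differed by 0.54 ± 0.22, and Hnf4a, which drives many clotting genes, by −0.12 ± 0.20. The 14 hepatocyte markers had a median of −0.17, with 11 negative and 1, Ttr, lower at an unadjusted p under 0.05 (7.14% of the list; −0.60 ± 0.28).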

How the data were processed

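Total RNA from libraries with an integrity number over 8.0 was sequenced, per the labels' protocols. The authors deposited raw read counts per gene. Reads were aligned with HISAT2 to mm10, per the submitters' processing notes, and which counter, strandedness and gene annotation were used is not given in the sources used here. Groups follow the genotype label, with replicates numbered by accession order, so a replicate number need not match the number in a library's title. WT replicate 3, for example, is not the library titled WT3. KO replicate 7 was placed by its genotype, as its title has the prefix KP. All 31 same-group pairs differed by more than sampling noise (smallest chi-square per degree of freedom 71.0).

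The 38 genes, the lists and the alternatives were chosen with earlier results of these data known. Genes kept by filterByExpr (minimum count 10, minimum total 15; 14666 genes with 99.9% of counts) entered robust quasi-likelihood F-tests of KO against WT over 12 libraries (edgeR 4.0.16, R 4.3.3) after TMM scaling, without covariates and with Benjamini-Hochberg adjustment over all genes at 0.05. Standard errors were obtained by dividing each log2 fold change by the root of its F statistic. A prior count of 2 entered log2 CPM. Alternatives were RLE and upper-quartile scaling, other filters, DESeq2 1.42.0, limma 3.58.1 (voom with and without sample weights), non-robust fits, covariates (title number range, depth class, Xist class), each depth class alone, each library left out, and a prior count of 0.5. Fits were also run on simulated counts with known changes, in which genes were drawn independently. The outcome is not given here and is not used for the calls above. Each WT value is given, with the KO range and median, for the 2 genes with the smallest p in each of 9 roles. The same holds for the 3 most and 3 least variable genes and those without overlap. Single KO libraries are named in places. Other genes of the 38 are given by range or fold change. Of other lists, up to 3 genes with the smallest p are given, plus Pck1, Xist and Alb. Hnf4a, Glul, Saa1 and overlapping or paralogous genes were named after their values were seen, as were the gene pairs whose ratios are given. Tf was matched as Trf. Gene coordinates and exon lengths are from GENCODE M21, promoters from RefSeq.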

Additional observations from a re-analysis of the deposited data

Results flagged for a closer look

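For each of the 38 genes the lowest and highest library of each group was compared with its neighbours, which made 76 groups, and in 2 of them a library stood apart by Dixon's 95% criterion, where chance gives about 1 in 20. Kng1 in KO replicate 1 was at 10.20 log2 CPM, with the next KO library at 11.37. C8g in KO replicate 5 was at 4.92 log2 CPM, with the next KO library at 6.78; without that library the log2 fold change of C8g was −0.72.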

How the results depend on the processing

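The median log2 fold change of the 38 genes stayed negative under all 25 alternatives, from −0.45 without WT replicate 1 to −0.22 without WT replicate 3. The count past an adjusted p of 0.05, 0 in edgeR's test, was 3 in DESeq2 and 9 in limma-voom with sample weights, and ran from 0 to 1 with a library left out. The count at an unadjusted p under 0.05, 10 in edgeR's test, was 16 in limma-voom with weights, 4 in the deeper libraries alone, and 7 to 13 with a library left out. Of those 10 genes, 9 kept a negative sign under every alternative, and C8a was at 0.0084 in the deeper libraries alone. Signs turned for 16 genes, with no adjusted p under 0.05 where the sign turned, and the cause was not tested. In the deeper libraries alone Fga was at 0.20, Fgb at 0.26, Fgg at 0.10, Kng1 at 0.35, F5 at −0.13, F13b at −0.18, Pros1 at −0.11, Vtn at 0.089, Cfi at 0.32, C6 at 0.10 and C9 at 0.98; in the shallower alone Serpinf2 was at −0.19 and C4bp at −0.062. With the Xist class as a covariate Fgb was at 0.20, F12 at 0.019, Kng1 at 0.028, Cfb at −0.050, Cfi at 0.16 and C4bp at −0.20. Cfi was at 0.13 in limma-voom with weights and 0.022 with the title number range. With a library left out, Fga ran from −0.40 to 0.065, Fgb from −0.22 to 0.20, Fgg from −0.38 to 0.029, F12 from −0.22 to 0.012, Kng1 from −0.55 to 0.087, F5 from −0.059 to 0.35, Serpinf2 from −0.14 to 0.32, Vtn from −0.23 to 0.057, Cfi from −0.17 to 0.20 and C4bp from −0.039 to 0.33. A prior count of 0.5 moved no difference of mean log2 CPM by more than the spread between replicates. C2 had the fewest counts of the 38 genes, 4 in KO replicate 4, the deepest library, and 149 at most. No paired analysis was possible because the labels give KO and WT no shared replicate numbers.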

Other observations

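The 3 libraries with the lowest C9, KO replicates 1, 2 and 3, held 15902, 9407 and 11642 CPM of Glul, the pericentral glutamine synthetase, against 31.7 to 2764 CPM in the other 9, where C9 was at 96.7 CPM or more. KO replicate 5 had the lowest Glul, at 31.7 CPM, and the highest C9, at 425.0 CPM. KO replicates 1, 2 and 3 are all shallower libraries, so high Glul and low C9 cannot be told apart from depth class there. The relation of C9 to Glul was seen after the values were known and was not tested. C6 and Mbl2 followed another order. Both were lowest in KO replicates 5 and 7, of which replicate 5 had Xist at 99.7 CPM and replicate 7 at 0.0438 CPM, and replicate 5 was deeper and replicate 7 shallower. In these libraries the hepatocyte markers summed to 222875 and 213231 CPM, above the KO median of 186098 CPM. Alb alone made up 112979 and 90848 CPM of these sums. The median deviation of the hepatocyte markers from each gene's mean was −0.027 in replicate 5 and 0.25 in replicate 7, on the log2 scale. With the Xist class as a covariate the log2 fold change was −2.14 for C6 and −1.81 for Mbl2, against −1.17 and −1.08 without it. Whether Xist class, depth or hepatocyte content bears on C6 and Mbl2 was not tested.

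Saa1, an acute phase gene known to respond far more steeply than fibrinogen, was lowest in KO replicate 5 (6.51 CPM) and highest in KO replicate 6 (671.1 CPM), whereas Fgb differed by 1.75 on the log2 scale between its lowest library, WT replicate 4, and its highest, WT replicate 3. WT replicate 4, low in all fibrinogen chains, had the second highest Saa1 level, 239.8 CPM. KO replicate 6, with the highest Saa1, held 8009, 7689 and 5190 CPM of Fga, Fgb and Fgg, more than every library except WT replicate 3. The relation of Saa1 to the fibrinogen genes was not tested.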
